A study of Homo sapiens with 9 samples.

Results

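Ribosome footprints were followed for 8 genes that restrain MAP kinase signalling, DUSP1, DUSP2, DUSP4, DUSP5, DUSP6, DUSP10, SPRY1 and SPRY2, in resting and activated Jurkat cells. They were a fixed list of 8 Ensembl IDs, chosen by family and function, with earlier results of these data known. All 8 were present among the 19569 gene IDs counted. Jurkat clone E6-1 is an established human T lymphoblast line, so every library comes from 1 clonal line in culture and none from primary T cells. The 9 libraries comprised 3 biological replicates each of resting cells, of cells activated for 5 h and of cells activated for 12 h. Resting cells are labelled 0 h and received no activating antibody. No library holds unactivated cells at 5 h or 12 h, so activation and time in culture cannot be told apart. Activation used plates coated with anti-CD3 antibody at 10 µg/mL, which engages the T cell receptor complex, and anti-CD28 antibody at 5 µg/mL in the medium, which engages its main costimulatory receptor. The series title names the balance between translational repression and RNA degradation by miRNAs as its subject.

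Ligation of the T cell receptor activates the MAP kinases ERK, JNK and p38, ERK by way of RAS. These kinases are active only while a threonine and a tyrosine in their activation loop are both phosphorylated. Dual-specificity phosphatases of the DUSP family remove both phosphates. Many DUSP genes are themselves transcribed in response to MAP kinase activity, which makes them feedback inhibitors. DUSP1, DUSP2, DUSP4 and DUSP5 encode nuclear enzymes, DUSP6 a cytoplasmic enzyme selective for ERK, and DUSP10 an enzyme that prefers p38 and JNK. Sprouty proteins, such as those of SPRY1 and SPRY2, act further upstream and dampen the step from receptors to RAS and ERK.

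Footprints are the short mRNA fragments protected by ribosomes, so a gene's count reflects both the amount of its mRNA and how heavily that mRNA is translated, and these were not separated here. Levels are given in CPM, for which each count is divided by its library's TMM-scaled size, and means carry the SD over 3 replicates. Longer coding sequences collect more footprints, so CPM values were compared between libraries and not between genes. Library totals ran from 4343515 to 18506509 counts, with means of 9857119 at rest, 13675131 at 5 h and 7499382 at 12 h. The ranges of the groups overlapped, and exact two-sided permutation tests of the totals gave p = 0.3 for 5 h against resting, 0.4 for 12 h against resting and 0.2 for 12 h against 5 h. With 3 libraries a group such a test cannot go below 0.1, so these p-values do not show that depth was alike. The count table names no gene other than by ID, so T cell markers and further genes of the pathway were not analysed here.

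Different courses were seen among the 8 genes at the times sampled. Nothing was sampled between rest and 5 h or between 5 h and 12 h, so changes there would go unseen. DUSP2, DUSP4, DUSP5 and SPRY1 rose at 5 h and fell again by 12 h, and DUSP2, DUSP4 and DUSP5 stayed above rest. DUSP10 rose at 5 h and was above rest at 12 h too, with no called difference between the times, while SPRY2 rose less and passed the test only at 5 h. DUSP1 did not rise at either time and was lower at 12 h than at rest, and DUSP6 was higher in every activated library without passing the test. The edgeR quasi-likelihood test called 6 of the 8 higher and none lower at 5 h, where 34.5% of the 13920 tested IDs were called, 16% higher and 18.4% lower. At unadjusted p under 0.05 as well, no member was lower at 5 h, and DESeq2 also called none lower. At 12 h against rest 4 were higher and 1 lower, where 35.1% of all IDs were called, 15.8% higher and 19.3% lower. Between 5 h and 12 h 4 fell and none rose, where 25.1% of all IDs were called, 13.5% lower and 11.6% higher. No member rose between the times at unadjusted p under 0.05 or by DESeq2 either. The median log2 fold change of the 8 genes was 2.07 at 5 h, 1.22 at 12 h and -1.09 between the times, beside 0.07, 0.04 and -0.05 over all tested IDs. The 5 h and 12 h comparisons share the resting libraries, so these values are not independent of each other. The list was chosen with earlier results known, so its contrast with all tested IDs is descriptive and no test of the list. Because the samples are bulk cultures, more responding cells and more footprints per cell cannot be told apart.

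**Figure D1:**
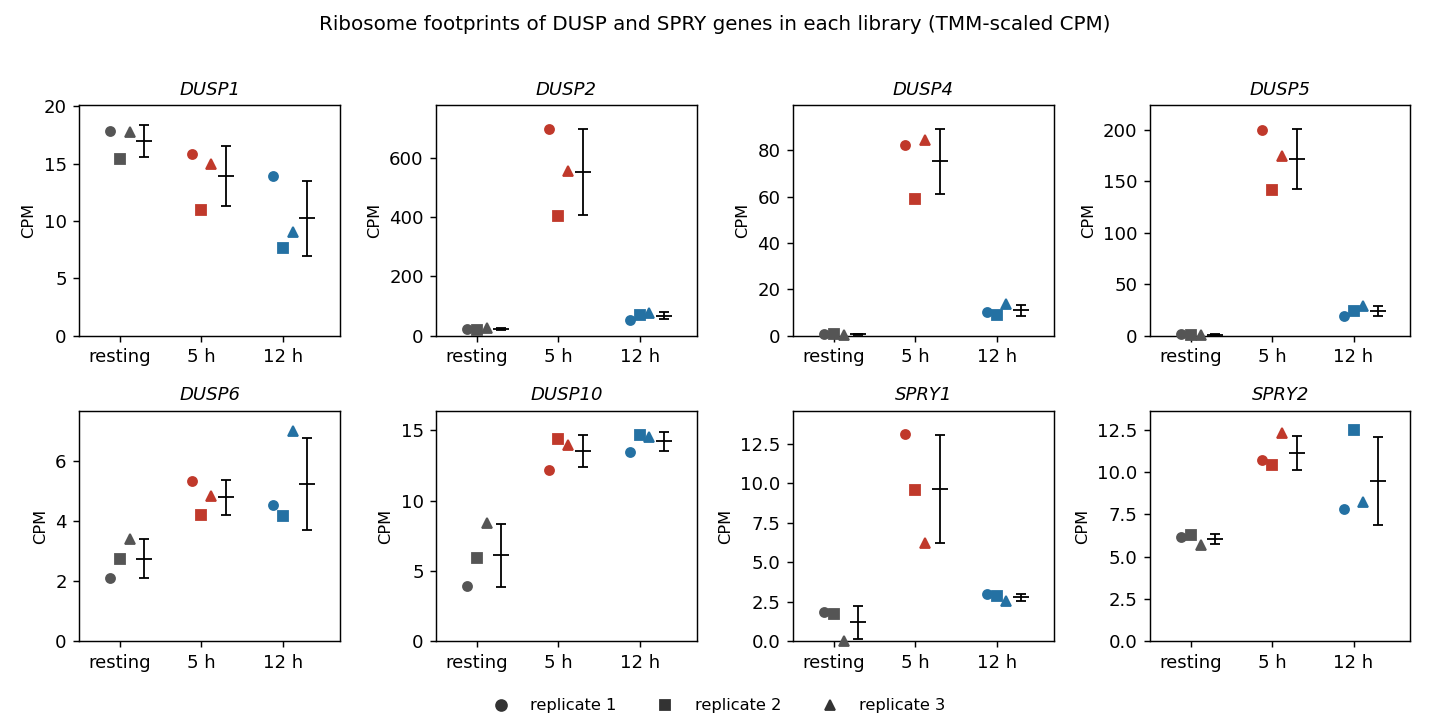
Ribosome footprints (y axis, TMM-scaled CPM, from 0, a scale of its own per gene) of each gene in resting, 5 h and 12 h libraries (x axis); symbols are the 3 replicates, and bars beside them give mean ± SD. Of the times sampled, DUSP2, DUSP4, DUSP5 and SPRY1 are highest at 5 h. DUSP10 is at 13.5 CPM at 5 h and 14.2 CPM at 12 h, and DUSP1 is lowest at 12 h, at 10.2 CPM.

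Over the times sampled, DUSP1 did not rise, DUSP2 rose and fell, DUSP10 stayed high and SPRY2 rose modestly. The regions just upstream of the transcription starts are shown for these 4 genes. Each is the 250 bases before a RefSeq start in GRCh38.p14, 5′ to 3′ on the gene's own strand, at chr5:172771196-172771445, minus strand for DUSP1, chr2:96145441-96145690, minus strand for DUSP2, chr1:221742090-221742339, minus strand for DUSP10 and chr13:80341127-80341376, minus strand for SPRY2. Capitals mark every match to the motifs searched.
DUSP1: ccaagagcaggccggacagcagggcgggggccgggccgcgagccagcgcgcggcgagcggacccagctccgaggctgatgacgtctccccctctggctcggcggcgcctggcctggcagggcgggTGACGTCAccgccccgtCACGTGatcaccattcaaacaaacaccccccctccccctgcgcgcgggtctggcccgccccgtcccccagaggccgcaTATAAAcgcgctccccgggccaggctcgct
DUSP2: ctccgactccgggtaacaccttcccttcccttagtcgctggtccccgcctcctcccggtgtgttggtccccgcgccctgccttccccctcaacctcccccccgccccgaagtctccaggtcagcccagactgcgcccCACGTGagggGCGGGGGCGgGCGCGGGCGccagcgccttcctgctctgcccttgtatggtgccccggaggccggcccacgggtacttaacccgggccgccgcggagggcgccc
DUSP10: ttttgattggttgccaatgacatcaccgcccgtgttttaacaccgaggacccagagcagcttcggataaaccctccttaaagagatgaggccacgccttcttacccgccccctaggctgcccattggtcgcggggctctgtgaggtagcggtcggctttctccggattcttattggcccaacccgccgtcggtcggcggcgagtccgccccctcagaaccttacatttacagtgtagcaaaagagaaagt
SPRY2: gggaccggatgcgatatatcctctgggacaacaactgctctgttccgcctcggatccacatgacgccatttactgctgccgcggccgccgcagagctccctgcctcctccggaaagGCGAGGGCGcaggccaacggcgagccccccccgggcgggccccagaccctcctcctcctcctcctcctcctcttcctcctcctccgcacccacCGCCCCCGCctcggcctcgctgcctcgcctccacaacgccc

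The table of RefSeq promoters matched 6 of the 8 members with 10 windows, DUSP4 and DUSP5 having no entry. In all, 8 motifs of factors downstream of MAP kinases or common in promoters were searched on both strands. They were the cyclic AMP response element TGACGTCA, the AP-1 site TGANTCA, the EGR site GCGNGGGCG, the ETS site CCGGAAG, the E-box CACGTG, the CArG box bound by serum response factor, the NF-kappaB site and the TATA box. The TATA box was searched as TATAAA on the gene's strand alone. None of these motifs overlapped another in the windows of the members. The DUSP1 window held the cyclic AMP response element, 125 to 118 bases before the start, an E-box at 108 to 103 and the TATA box at 30 to 25. Of all 35116 windows of this length, 1.65% held the cyclic AMP response element, 6.34% the E-box and 6.8% the TATA box. The DUSP2 window held the EGR site at 103 to 95 and again at 93 to 85 bases before the start, and an E-box at 113 to 108. The SPRY2 window held the EGR site at 134 to 126, and on the opposite strand at 41 to 33. The EGR site was found in 8.41% of all windows, whose median GC content was 58%, against 74.0% for the DUSP2 window and 70.4% for that of SPRY2. The DUSP1 window, which held no EGR site, was at 74.4%. The second SPRY1 window, at 68%, held an EGR site at 28 to 20 and the ETS site at 67 to 61 bases before its start. Of all windows, 8.52% held the ETS site. The remaining 6 windows, of DUSP6, DUSP10, SPRY1 and SPRY2, held none of the motifs searched. No member window held the AP-1 site, the CArG box or the NF-kappaB site, which 6.57%, 1.16% and 5.21% of all windows held. These matches describe letters in a short window. Binding and the start sites used in Jurkat cells were not measured.

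DUSP2 (ENSG00000158050), a nuclear phosphatase of ERK and p38 first described in activated T cells, was at 21.7, 19.5 and 25.1 CPM in the resting libraries. It reached 696, 404 and 555 CPM at 5 h and stood at 53.9, 69.0 and 77.4 CPM at 12 h. No 2 of the 3 groups overlapped. Of all tested IDs, 23.1% lay above rest without overlap at 5 h and 22.1% at 12 h, while 20.8% lay lower without overlap at 12 h than at 5 h. The mean rose 25.0-fold, from 22.1 ± 2.83 to 552 ± 146 CPM (SD, n = 3), a log2 fold change of 4.64 ± 0.16 (SE) with an adjusted p of 8.69e-16 by edgeR. Only 0.524% of tested IDs had a larger log2 fold change. At 12 h DUSP2 was 3.03-fold above rest, at 66.8 ± 11.9 CPM (log2 1.59 ± 0.17, adjusted p = 1.05e-07 by edgeR). The fall between the times was 8.27-fold (log2 -3.06 ± 0.15, adjusted p = 1.27e-12 by edgeR), and 8.44% of the 5 h gain was still present at 12 h.

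DUSP5 (ENSG00000138166), a nuclear phosphatase specific for ERK, had very few footprints at rest: 14, 9 and 6 counts, or 1.63, 0.989 and 0.622 CPM. At 5 h it was at 199.6, 141 and 175 CPM from 1980, 1885 and 3223 counts, and at 12 h at 19.1, 24.3 and 28.9 CPM. No activated library came near a resting one. Of all tested IDs, 23.1% lay above rest without overlap at 5 h and 22.1% at 12 h. The mean went from 1.08 ± 0.51 to 172 ± 29.3 CPM, a log2 fold change of 7.32 ± 0.34 (SE, adjusted p = 5.18e-17 by edgeR), and 18 of the 13920 tested IDs had a larger one. The pooled ratio of 160 had a 95% counting interval from 112 to 240, set mainly by the 29 resting counts. At 12 h the mean of 24.1 ± 4.91 CPM was 22.3-fold above rest (log2 4.47 ± 0.35, adjusted p = 6.45e-12 by edgeR). It was 7.14-fold below 5 h (log2 -2.85 ± 0.16, adjusted p = 6.16e-12 by edgeR), with 13.5% of the gain present.

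DUSP4 (ENSG00000120875), a nuclear phosphatase of ERK and JNK, followed nearly the same course. It had 5, 7 and 3 counts at rest (0.582, 0.769 and 0.311 CPM), rose to 82.4, 58.9 and 84.3 CPM at 5 h and stood at 10.3, 8.98 and 13.6 CPM at 12 h. All 3 groups were separate from one another, and the shares of all tested IDs without overlap are those given for DUSP2. The mean rose from 0.554 ± 0.231 to 75.2 ± 14.1 CPM (log2 7.07 ± 0.41, SE, adjusted p = 2.27e-15 by edgeR), and the pooled ratio of 138 had a 95% counting interval from 83.5 to 247. The 12 h mean of 10.9 ± 2.37 CPM was 19.7-fold above rest (log2 4.30 ± 0.42, adjusted p = 3.05e-10 by edgeR). Relative to 5 h it was 6.87-fold lower (log2 -2.77 ± 0.19, adjusted p = 1.27e-10 by edgeR), with 13.9% of the gain present. DUSP4 passed the low-count filter through its activated libraries only, since none of its resting libraries reached the filter's 0.984 CPM. DUSP5 and SPRY1 needed activated libraries to pass too. The filter asks for 3 libraries and takes CPM from the library totals alone, without the TMM scaling of the values printed here. On that scale 1 resting library of DUSP5 and 2 of SPRY1 reached the level.

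DUSP1 (ENSG00000120129), a nuclear phosphatase that prefers p38 and JNK and a classical immediate early gene, did not share this course. It was at 17.8, 15.4 and 17.7 CPM at rest, 15.8, 10.9 and 15.0 CPM at 5 h and 14.0, 7.66 and 9.01 CPM at 12 h. The 5 h libraries overlapped both other groups, while the 12 h libraries lay below all resting ones, as they did for 23.7% of all tested IDs. The mean of 13.9 ± 2.61 CPM at 5 h did not differ from the resting 17.0 ± 1.38 CPM beyond the spread (log2 -0.29, 95% interval -0.74 to 0.17, adjusted p = 0.333 by edgeR). At 12 h DUSP1 fell to 10.2 ± 3.31 CPM (log2 -0.69 ± 0.23, SE, adjusted p = 0.0212 by edgeR). This call was lost on leaving out resting replicate 1 or 3 or 12 h replicate 2 or 3, where edgeR gave adjusted p-values of 0.0556, 0.0537, 0.0909 and 0.0880. From 5 h to 12 h the log2 difference was -0.41, with a 95% interval from -0.88 to 0.07 (adjusted p = 0.217 by edgeR), and without 12 h replicate 1 it was -0.73 and passed (adjusted p = 0.0407 by edgeR).

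DUSP10 (ENSG00000143507), the phosphatase that prefers p38 and JNK, rose and stayed up. It was at 3.96, 5.93 and 8.39 CPM at rest, 12.2, 14.4 and 14.0 CPM at 5 h and 13.4, 14.7 and 14.5 CPM at 12 h. All 6 activated libraries were above all resting libraries, as held for 23.1% of all tested IDs at 5 h and 22.1% at 12 h. The activated groups overlapped each other. The mean rose 2.22-fold, from 6.10 ± 2.22 to 13.5 ± 1.16 CPM at 5 h (log2 1.14 ± 0.24, SE, adjusted p = 0.000690 by edgeR), and was 2.33-fold above rest at 12 h, at 14.2 ± 0.67 CPM (log2 1.21 ± 0.25, adjusted p = 0.000479 by edgeR). The log2 difference between the times was 0.07, with a 95% interval from -0.42 to 0.55 (adjusted p = 0.887 by edgeR).

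DUSP6 (ENSG00000139318), the cytoplasmic ERK phosphatase, was at 2.10, 2.75 and 3.42 CPM at rest, 5.34, 4.20 and 4.83 CPM at 5 h and 4.54, 4.16 and 6.99 CPM at 12 h. Every activated library exceeded every resting one, a pattern found upward for 23.1% of all tested IDs at 5 h and 22.1% at 12 h. The counts were low, 76 in the 3 resting libraries together. The log2 fold change at 5 h was 0.79, with a 95% interval from 0.001 to 1.58 and edgeR's adjusted p was 0.114. At 12 h it was 0.92, with an interval from 0.12 to 1.73 and edgeR's adjusted p was 0.0686. The 12 h value passed with a filter of at least 50 counts in 3 libraries (adjusted p = 0.0347 by edgeR) and in limma on the authors' deposited log2 table (adjusted p = 0.0414). It passed under none of the other alternatives. Without 12 h replicate 3 it was 0.65 (adjusted p = 0.288 by edgeR), and without resting replicate 1 it was 0.75 (adjusted p = 0.197 by edgeR). The RefSeq annotation also lists a readthrough gene, POC1B-DUSP6, over the same locus, and the sources used here do not say how the authors' counting treated fragments of both. No other member overlaps an annotated gene.

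SPRY1 (ENSG00000164056), a Sprouty inhibitor of the RAS to ERK pathway, was at 1.86, 1.76 and 0 CPM at rest, 13.1, 9.60 and 6.24 CPM at 5 h and 3.00, 2.85 and 2.55 CPM at 12 h. The 5 h libraries stood above all others, and the 12 h libraries lay between them and the resting ones. Without overlap, 23.1% of all tested IDs lay above rest at 5 h and 22.1% at 12 h, and 20.8% lower at 12 h than at 5 h. The 0 in resting replicate 3 stood beside 16 counts in each of the other resting libraries, whose mean level would give 17.5 counts there. A count of 0 allows up to 0.311 CPM (3 counts), counting error only. Such a 0 beside at least 10 counts in both other replicates was seen for 43 of 11309 IDs in resting replicate 3 and for 8 to 109 IDs in the other libraries. SPRY1 rose from 1.21 ± 1.05 to 9.65 ± 3.43 CPM at 5 h (log2 3.00 ± 0.56, SE, adjusted p = 0.000195 by edgeR). Without resting replicate 3 the log2 rise was 2.39 (adjusted p = 0.000133 by edgeR). At 12 h, at 2.80 ± 0.22 CPM, the log2 difference from rest was 1.23 with a 95% interval from -0.01 to 2.47 (adjusted p = 0.116 by edgeR), and 0.62 without resting replicate 3 (adjusted p = 0.315 by edgeR). The fall between the times was 3.45-fold (log2 -1.77 ± 0.52, adjusted p = 0.0141 by edgeR). Without 5 h replicate 1 or 12 h replicate 3 the fall did not pass, where edgeR gave adjusted p-values of 0.0691 and 0.0513.

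SPRY2 (ENSG00000136158), the second Sprouty gene, was at 6.17, 6.26 and 5.70 CPM at rest, 10.7, 10.4 and 12.3 CPM at 5 h and 7.79, 12.5 and 8.20 CPM at 12 h. All activated libraries were above all resting ones, as held for 23.1% of all tested IDs at 5 h and 22.1% at 12 h. The activated groups overlapped. The mean rose 1.84-fold, from 6.05 ± 0.304 to 11.1 ± 1.00 CPM at 5 h (log2 0.88 ± 0.25, SE, adjusted p = 0.00780 by edgeR). Tested against a change of 1.5-fold the rise did not pass (adjusted p = 0.284, glmTreat in edgeR). At 12 h the mean was 9.49 ± 2.60 CPM and the log2 difference from rest 0.62, with a 95% interval from 0.09 to 1.16 (adjusted p = 0.0648 by edgeR). The filter of at least 50 counts in 3 libraries brought it past the threshold (adjusted p = 0.0386 by edgeR), and without 12 h replicate 2 the difference was 0.39 (adjusted p = 0.300 by edgeR). The log2 difference between 12 h and 5 h was -0.26, with an interval from -0.77 to 0.25 (adjusted p = 0.519 by edgeR).

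**Figure D2:**
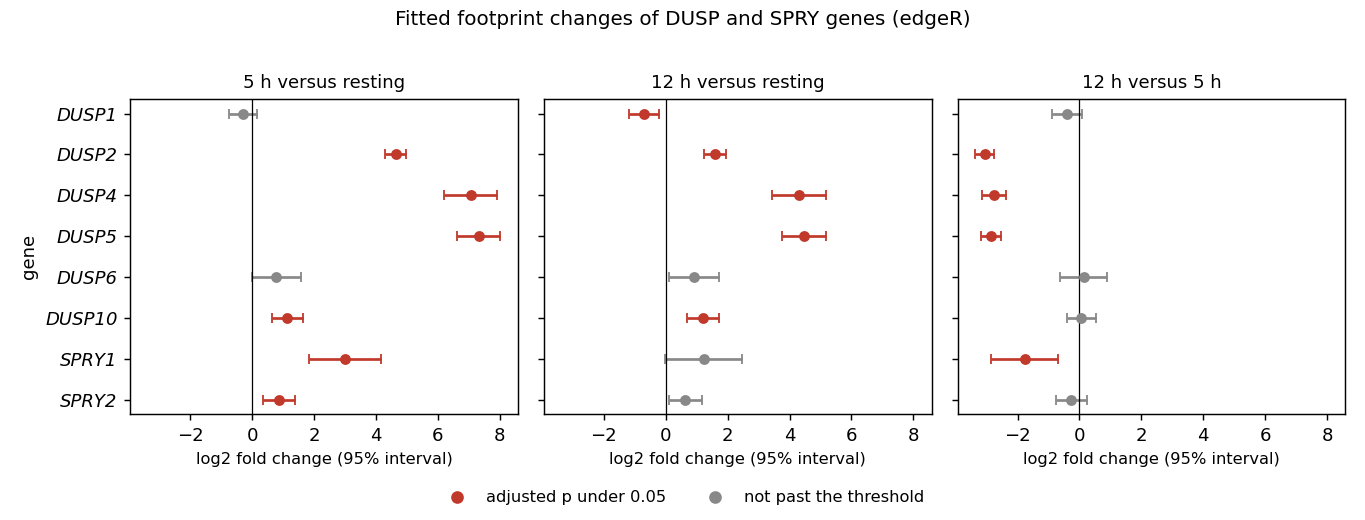
Fitted log2 fold changes (x axis) with 95% intervals for each gene (y axis) in the 3 comparisons; red marks an adjusted p under 0.05 over all tested IDs and grey the others. DUSP4 and DUSP5 have the highest values at 5 h, 7.07 and 7.32, and the values of DUSP6 and DUSP10 between 12 h and 5 h are near 0.

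Summed over the 8 genes, footprints rose from 56.8 ± 4.05 CPM at rest to 852 ± 191 CPM at 5 h and were at 144 ± 17.6 CPM at 12 h. DUSP2 made up much of this sum. Without it the remaining 7 genes went from 34.7 ± 1.26 to 300.2 ± 45.7 and then 77.0 ± 6.07 CPM, and the 3 groups of libraries were again separate. Of this 5 h sum DUSP5 made up 172 CPM and DUSP4 75.2 CPM, while DUSP1 did not rise. The sum therefore does not show a rise in all 7 genes. These sums count footprints and do not compare expression between genes. Among all tested IDs 2.6% were called higher by more than 4-fold at 5 h, and DUSP2, DUSP4, DUSP5 and SPRY1 were among them. At 12 h 1.86% were, with DUSP4 and DUSP5 among them. DUSP4, DUSP5 and SPRY1 needed activated libraries to pass the low-count filter, so their place among these IDs is descriptive and no test.

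**Figure D3:**
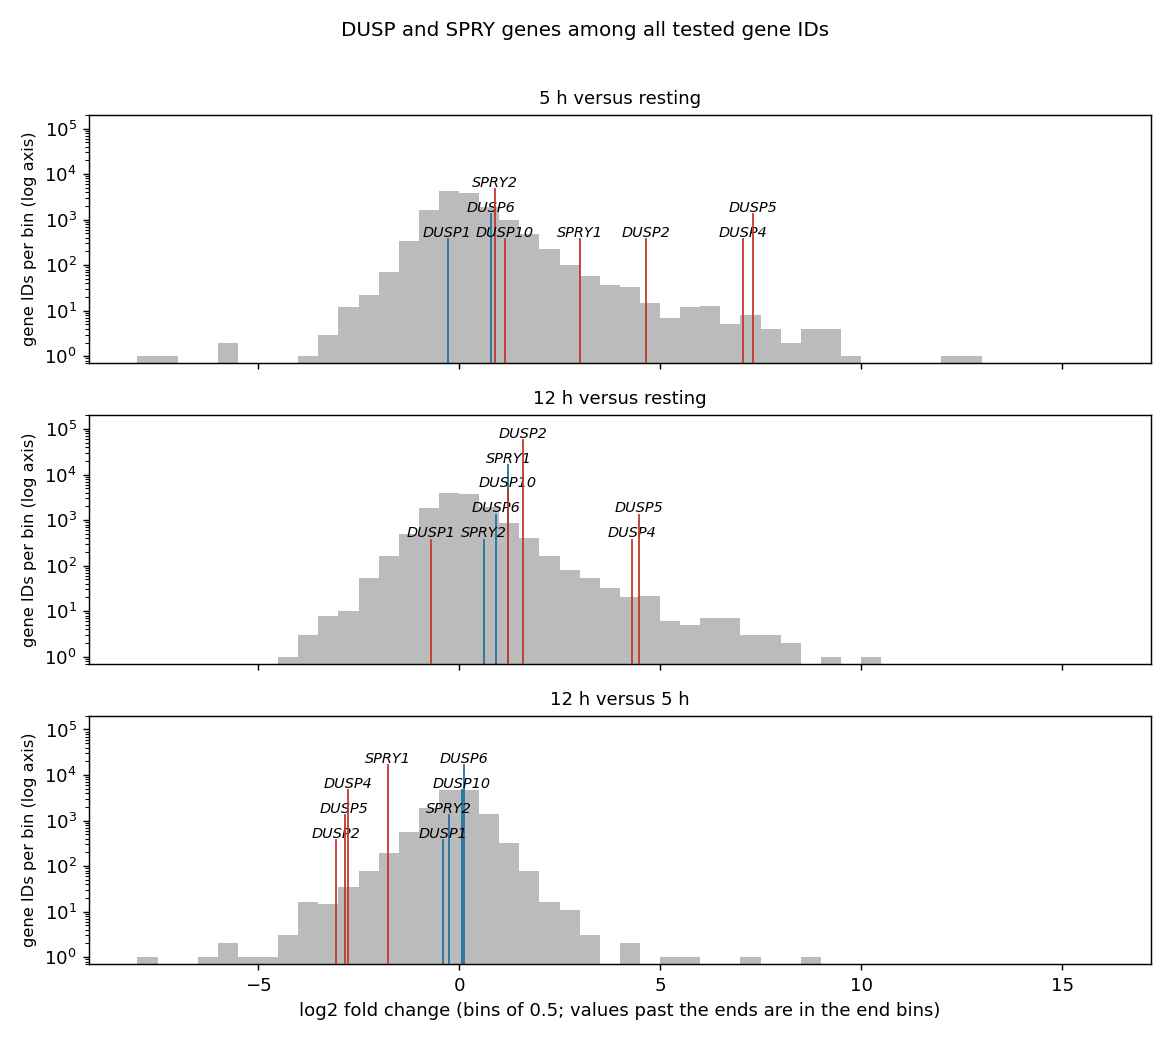
Numbers of tested gene IDs (y axis, log scale) by log2 fold change (x axis, bins of 0.5) in the 3 comparisons; vertical lines place the 8 genes, red where called and blue where not, and their heights only separate the names. At 5 h DUSP4 and DUSP5 lie in the far right tail, and between 12 h and 5 h DUSP2, DUSP4 and DUSP5 lie in the left tail. At 12 h against resting the lines of DUSP10 (1.21, called) and SPRY1 (1.23, not called) nearly coincide.

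Likeness of the courses was described by Pearson's r of log2 CPM over the 9 libraries, which holds both the differences between groups and the spread within them. DUSP4 and DUSP5 were the closest pair, with r = 0.995, and of the 13919 other tested IDs 3 were closer to DUSP4 and 2 closer to DUSP5. DUSP2 was next to both, at 0.943 with each, although 1.03% of IDs were closer to DUSP2 than DUSP5 was. Among members averaging at least 10 CPM, those most like SPRY2 were DUSP5 (r = 0.890), DUSP4 (0.876) and DUSP2 (0.817). Within that limit those most like SPRY1 were DUSP4 (0.807), DUSP5 (0.805) and DUSP2 (0.697). SPRY1 and SPRY2, both below it, had r = 0.705 with each other. Of the other tested IDs 3.35% were closer to SPRY1 than DUSP4 was, and 0.826% closer to SPRY2 than DUSP5 was. Values of SPRY1 include the 0 in resting replicate 3. With no limit on CPM, DUSP6 and DUSP10 were most like each other (0.891). After that, DUSP6 was closest to DUSP4 (0.738) and DUSP5 (0.721), and DUSP10 to DUSP4 (0.787) and DUSP5 (0.776). Of the other tested IDs 0.388% were closer to DUSP6 than DUSP10 was, and 1.24% closer to DUSP10 than DUSP6 was. DUSP6 averaged only 4.26 CPM. DUSP1 had negative values with all 7 others, from -0.64 with DUSP10 to -0.16 with DUSP2.

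**Figure D4:**
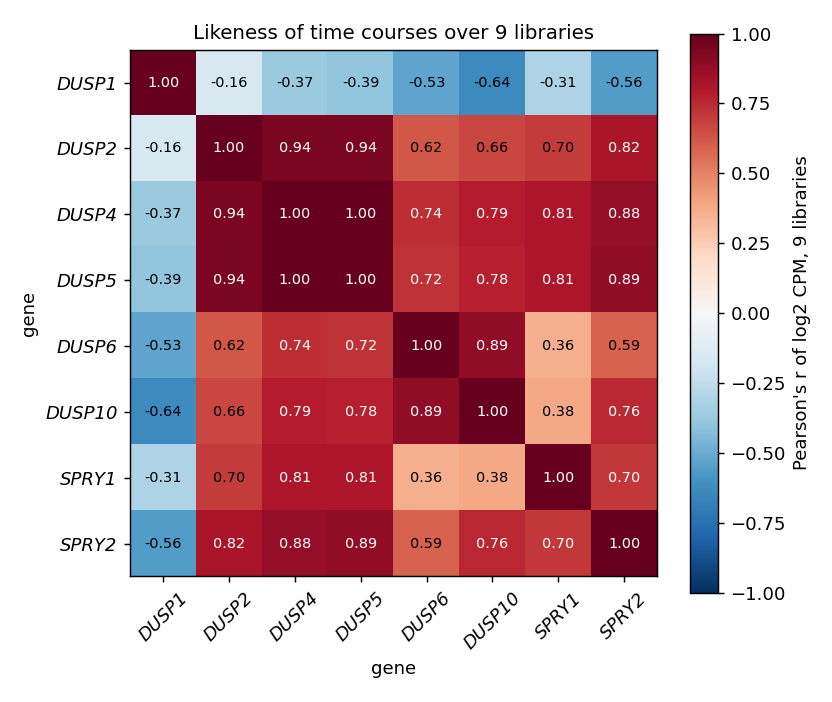
Pearson's r of log2 CPM over 9 libraries for each pair of genes (both axes), with the value in each cell and colour from blue (-1) to red (1). DUSP2, DUSP4 and DUSP5 form a block at 0.94 or above, and the row of DUSP1 is negative throughout apart from its own cell; the r of 0.995 between DUSP4 and DUSP5 is rounded up in its cell.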

How the data were processed

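Ribosome profiling was analysed in 9 Jurkat libraries, grouped by their titles. The deposited table holds whole-number footprint counts per versioned Ensembl ID. Per the submitters' processing notes, cutadapt 3.2, Bowtie, bedtools, RSEM, DESeq2 and GRCh38.p13 were used, with no role stated for any of them. The authors' deposited log2 table holds 11572 IDs, 7 members among them (SPRY1 is not listed). Its values equalled log2 of the count over 1 size factor per library, plus 1, within 5.03e-09.

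Counts of all 9 libraries entered 1 fit in edgeR 4.0.16 (R 4.3.3) with TMM scaling, filterByExpr (13920 of 19569 IDs, all 8 members) and quasi-likelihood tests, which was also tested on simulated data. P-values were adjusted by Benjamini-Hochberg over all tested IDs, and called under 0.05. Intervals use the fit's standard error, and counting intervals are exact and conditional. Changes are relative to the scaled library. The common biological coefficient of variation was 15.6%. Alternatives were other scaling, filters and sample sets, a replicate block, DESeq2 1.42.0, limma 3.58.1 on the log2 table, glmTreat, and each library left out.

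Names of the 8 members come from the list that defined them. Other IDs could not be named from the tables used, so lists of cell type markers and of further pathway genes, and the 3 most alike named genes outside the 8, were not analysed here. All 8 members are named with values. Members, lists and motifs were chosen with earlier results of these data known. Replicate numbers do not pair libraries by any label: deviations from group means correlated at -0.06 to 0.06 for the 9 same-number pairs.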

Additional observations from a re-analysis of the deposited data

Results flagged for a closer look

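The difference from rest at 12 h was unlike that at 5 h for 4 of the 8 genes, tested directly as 12 h against 5 h. In this test, edgeR's quasi-likelihood test, 25.1% of all tested IDs were called, 13.5% lower and 11.6% higher. The log2 difference was -3.06 for DUSP2, -2.77 for DUSP4, -2.85 for DUSP5 and -1.77 for SPRY1. The SPRY1 call (adjusted p = 0.0141 by edgeR) was lost without 5 h replicate 1 or 12 h replicate 3, and against a 1.5-fold change. Every 12 h library was below every 5 h library for each of these 4 genes, which held downward for 20.8% of all tested IDs. Groups of 3 libraries are too small for a test of single outlying libraries.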

How the results depend on the processing

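Of 405 values of single genes under 17 alternatives, 390 kept their direction and their side of the threshold, 9 lost a call, 4 gained one and 2 changed sign. The 390 include genes called in neither fit, and fits that left out a library of the group not compared, where little change was possible. The DUSP1 call at 12 h versus resting held in 5 of the 9 fits with a library left out. Both changes of sign were in differences between 12 h and 5 h near 0 and with a library left out: those of DUSP6 ran from -0.14 to 0.25 and those of DUSP10 from -0.0064 to 0.12. Testing against a 1.5-fold change (glmTreat), which asks for more, left 1098 of 4797 calls at 5 h versus resting, 1130 of 4887 at 12 h versus resting and 617 of 3497 at 12 h versus 5 h, and 5, 4 and 3 of the 8 genes. With the replicate block 4644, 4689 and 3373 IDs were called, and 6, 5 and 4 of the 8 genes as in the fit without it. It changed the call of none of the 8 genes. With each library left out in turn, 6 of the 8 genes were called at 5 h throughout, 4 to 5 at 12 h versus resting and 3 to 5 at 12 h versus 5 h. Over all IDs, of which these fits tested 14431 to 14918, they called 4000 to 4744, 4021 to 5021 and 2831 to 3766. Low counts limit the resting levels of DUSP4, DUSP5, SPRY1 and DUSP6, at 15, 29, 32 and 76 counts in the 3 resting libraries. SPRY1 has no value from the log2 table, which does not list it.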

Other observations

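The spread between replicates differed by gene and time. DUSP10 varied most at rest, with a coefficient of variation of 36.4%, against 8.60% at 5 h and 4.73% at 12 h (n = 3 each). SPRY2 varied least at rest, at 5.03%, and reached 27.4% at 12 h, where replicate 2 was highest. Within the 5 h group, replicate 2 was the lowest library for 6 of the 8 genes, all but DUSP10 and SPRY1, and replicate 1 the highest for 5. From group means, the share of the 5 h gain still present at 12 h was 67.8% for SPRY2, and 38.4% without replicate 2 of the 12 h group. That of SPRY1 was 18.9%, and 12.6% without replicate 3 of the resting group.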
